A study of Homo sapiens with 6 samples.

Results

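The transcripts described here are those of the IGF receptors, their adaptors and the IGF-binding proteins: *IGF1R*, *IGF2R*, *INSR*, *IRS1*, *IRS2*, *IGFBP2*, *IGFBP3*, *IGFBP4*, *IGFBP6* and *IGFBP7*. The 10 genes were taken by name from 20347 gene symbols, and all 10 were among the 12773 genes tested. RNA-seq was made of PaTu8988t, an established human pancreatic ductal adenocarcinoma (PDAC) cell line grown in DMEM with fetal bovine serum. There were 3 replicates of control cells, which received the Cas9 vector with an unspecific guide, and 3 clonally independent *SAMD1* KO clones, which were made with CRISPR/Cas9 guides against *SAMD1*, puromycin selection and picking of single cells. SAMD1 is a chromatin-bound regulator that binds unmethylated CpG-rich promoters, and the comparison asked which transcripts change when it is lost. Every KO library is a different clone, so the spread within the KO group holds differences between clones, whereas nothing in the labels says how the control replicates were separated.

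Insulin-like growth factors act through IGF1R and INSR, receptor tyrosine kinases that recruit the docking proteins IRS1 and IRS2 and, through them, the PI3K and AKT kinases. IGF2R has no kinase and takes IGF2 up for degradation. The IGFBPs are secreted proteins that bind IGFs outside the cell, lengthen their life and in most settings keep them from the receptors. Proteases such as PAPPA release the growth factors again. In pancreatic tumors, stromal cells are a known source of IGFs, to which tumor cells respond through these receptors.

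All expression values are normalized counts, that is reads per gene divided by a size factor for each library, and levels of different genes are compared only as normalized counts per kb of transcript. Library totals ran from 35589477 to 45172216 recovered reads. *SAMD1* itself, the targeted gene, was lower in each KO clone than in each control library, with a log2 fold change of -1.32 ± 0.10 (SE; adjusted p = 0.000724, limma). *KRT8*, *KRT18*, *EPCAM*, *MUC1* and *SOX9* were detected in every library, while *KRT19* was listed at 0 throughout. *CDH1* was low, at 24.0 to 45.8 normalized counts in control cells and 37.8 to 44.5 in KO clones, and *KRT7* stood at 26.4 to 34.3 and 78.1 to 90.7. The 8 duct genes summed to 63627 to 66838 normalized counts in control cells and 68940 to 110460 in KO clones, without overlap. Nearly all of this sum was *KRT8* and *KRT18*. The groups overlapped for *KRT8* (32902.5 to 35575.3 in control cells, 34021.2 to 57041.3 in KO clones), *EPCAM* and *CDH1*, whereas the clones lay higher for *KRT18*, *KRT7*, *MUC1* and *SOX9*. The defining acinar genes (4 of 4) and islet genes (4 of 4) were at 0 in all 6 libraries, as were *DCN*, *LUM* and *FAP* of fibroblasts and *CD3E* of lymphocytes. The summed level of the 8 fibroblast genes was 571.4 to 582.2 normalized counts in control cells and 476.7 to 811.2 in KO clones. Nearly all of it came from 3 genes that did not move together. *COL3A1* had 108.8 to 113.5 normalized counts in control cells and 130.4 to 398.3 in KO clones. *COL1A1* had 48.9 to 52.7 and 15.3 to 41.5, and *ACTA2* 405.1 to 417.5 and 328.3 to 368.0. The 5 leukocyte genes summed to 368.8 to 383.5 and 265.2 to 354.4, nearly all of it *CD68*, and the 4 endothelial genes to 80.1 to 85.9 and 35.6 to 85.4. Their part in the differences below was not tested. In bulk RNA, fewer cells with a transcript and less of it per cell cannot be told apart.

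The binding proteins held the largest differences. *IGFBP4* was 3.01-fold higher and *IGFBP6* 1.83-fold higher in *SAMD1* KO cells, *IGFBP2* was 1.59-fold higher, and *IGFBP3* was lower, at 0.739 times the control mean. The spread between clones was wide for *IGFBP4*, at 1.68 to 3.95 times the control mean, and for *IGFBP2*, at 1.14 to 1.94 times. *IGF1R* was 1.24-fold higher, and *INSR*, *IRS2*, *IRS1* and *IGF2R* had smaller or less certain differences. By the cut-off of the study, a log2 fold change beyond 0.5 with an unadjusted p below 0.01, 3 of the 10 genes were higher (*IGFBP2*, *IGFBP4* and *IGFBP6*), against 5.77% of all tested genes, and 0 were lower, against 2.08%. At an adjusted p below 0.05 with any fold change, 3 were higher (*IGF1R*, *IGFBP4* and *IGFBP6*), against 8.32% of all tested genes, and 1 was lower (*IGFBP3*), against 4.7%. The 3 libraries of one group lay apart from the 3 of the other for 7 of the 10 genes, which held for 37.8% of all tested genes. The shares of all genes are given as a description, since the 10 genes were not drawn blind to these data. The median log2 fold change was 0.25 over the 10 genes and -0.0059 over all tested genes. With 3 against 3 libraries an exact permutation test cannot give a p below 0.1, so the adjusted p-values are from limma, fitted to all tested genes.

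**Figure D1:**
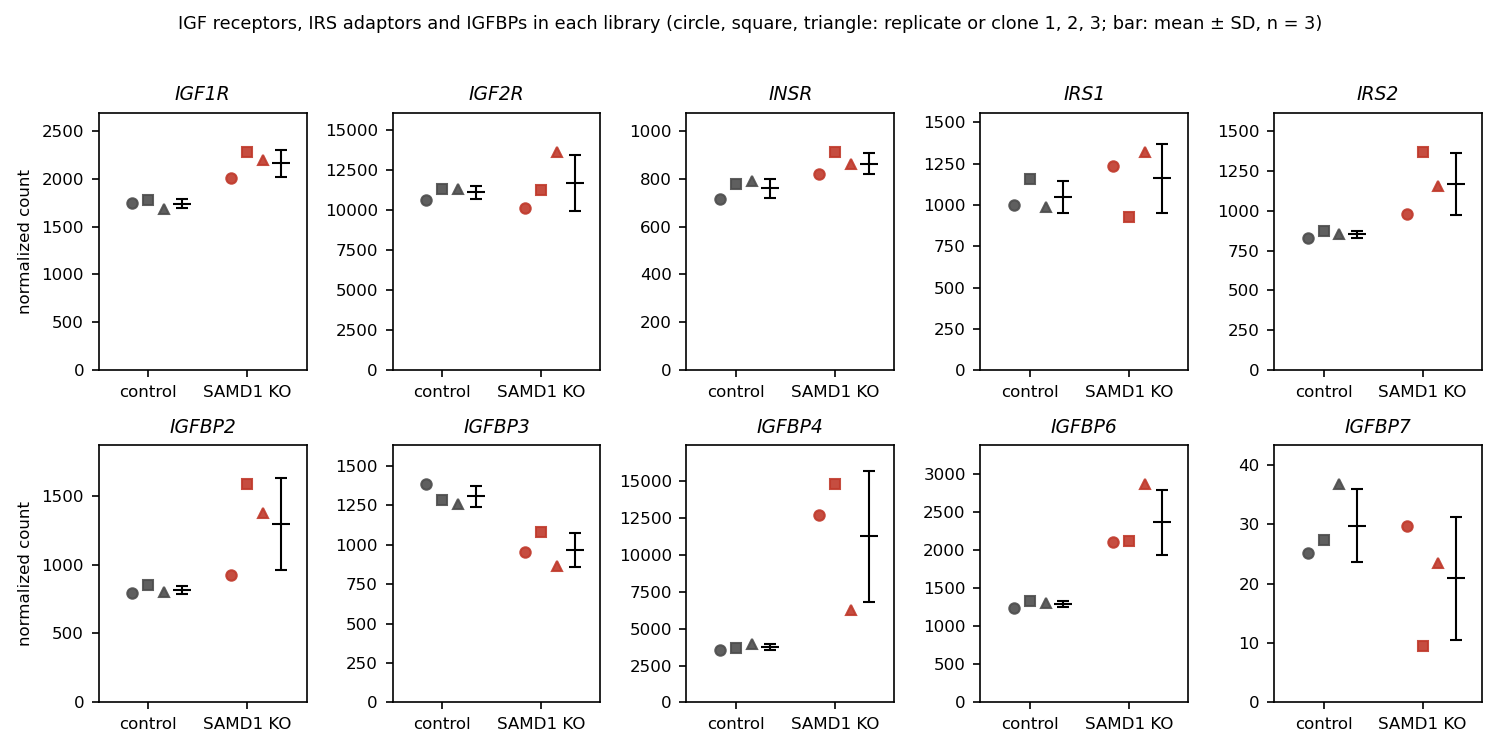
Normalized counts of the 10 genes in the 6 libraries, each panel with a linear axis from 0. Points are libraries, and the bar to the right of each group is its mean with the SD (n = 3). The KO clones lie above all control libraries for IGF1R, INSR, IRS2, IGFBP2, IGFBP4 and IGFBP6 and below them for IGFBP3, and the groups overlap for IGF2R, IRS1 and IGFBP7.

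**Figure D2:**
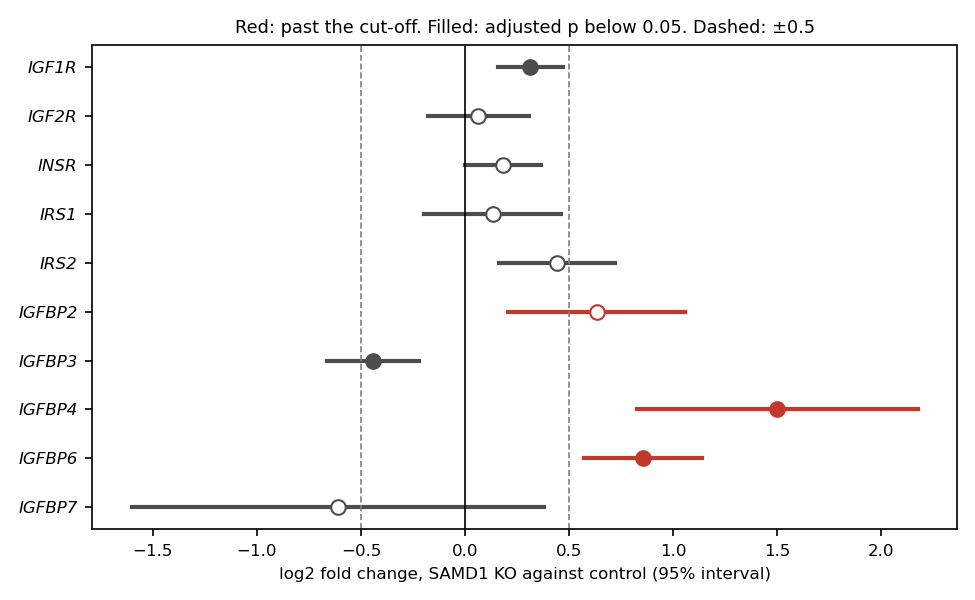
Log2 fold change of each gene, SAMD1 KO against control, with its 95% interval from limma. Red marks the genes past the cut-off of the study, filled symbols an adjusted p below 0.05, and dashed lines a log2 fold change of 0.5 in either direction. IGFBP4 has the highest value at 1.50, and the interval of IGFBP7 reaches from -1.60 to 0.38.

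GCGC is the sequence that SAMD1 is known to prefer, so the 250 bases before the RefSeq start were searched for it in 9 of the 10 genes (all but *IGFBP7*). The motif is its own reverse complement, so both strands give the same matches, and overlapping matches were counted separately. At least 1 GCGC was held by 8 of the 9 promoters, against 53.4% of the 35116 promoters in the RefSeq table, where the median was 1 and the 90th percentile 6. The 9 windows were also richer in G and C, at 61.2% to 81.2% of bases against a median of 58% over all promoters. They held 9 to 48 CpG, against a median of 11. Matches were not compared with promoters of equal GC or CpG content, so no enrichment of the motif itself is shown. Printed are *IGFBP4*, which rose most, *IGFBP2*, which passed the cut-off without a limma adjusted p below 0.05, and *IGF1R*, the receptor that rose. They are given 5′ to 3′ on the strand of the gene from RefSeq on GRCh38.p14, with GCGC in capitals, and lie at chr17:40443200-40443449, chr2:216633170-216633419 and chr15:98648289-98648538, all on the plus strand.
IGFBP4: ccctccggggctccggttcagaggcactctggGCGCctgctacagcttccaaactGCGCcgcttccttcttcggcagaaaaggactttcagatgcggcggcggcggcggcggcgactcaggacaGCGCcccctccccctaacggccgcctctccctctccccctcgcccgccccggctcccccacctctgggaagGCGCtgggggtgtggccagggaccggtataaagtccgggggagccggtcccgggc
IGFBP2: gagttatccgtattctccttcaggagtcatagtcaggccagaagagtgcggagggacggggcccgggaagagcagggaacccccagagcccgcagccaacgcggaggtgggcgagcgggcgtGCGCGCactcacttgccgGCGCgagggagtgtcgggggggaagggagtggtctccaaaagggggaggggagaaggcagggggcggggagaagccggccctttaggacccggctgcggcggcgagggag
IGF1R: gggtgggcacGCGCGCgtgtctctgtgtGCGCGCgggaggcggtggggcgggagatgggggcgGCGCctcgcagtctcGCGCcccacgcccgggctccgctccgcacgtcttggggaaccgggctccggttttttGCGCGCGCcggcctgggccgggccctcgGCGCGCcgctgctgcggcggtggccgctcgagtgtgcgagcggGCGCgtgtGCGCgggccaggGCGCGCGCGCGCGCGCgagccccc
The *IGF1R* promoter held 20 matches, a number reached by 0.0256% of all promoters, and 81.2% of its bases were G or C. The *IGFBP4* promoter held 4 matches (22.0% of promoters held as many or more) and the *IGFBP2* promoter 3 (29.5%). Of the others, *IRS1* held 13, *IRS2* 10, *INSR* 9, *IGF2R* 6, *IGFBP3* 6 and *IGFBP6* 0, the window of *IGFBP6* lying largely in an exon of a longer transcript of the gene. The windows of *IGFBP2* and *IGFBP3* also lay within the annotated span of their own gene, with 0 bases in its exons. For *IGFBP2*, RefSeq lists 3 starts, and the one at the canonical start was used. Among the genes that rose, *IGF1R* thus had the most matches and *IGFBP6* none, and *IRS1*, which did not pass the test, had 13. Binding of SAMD1 to these promoters was not analysed here.

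*IGF1R*, the main receptor of both IGF1 and IGF2 (chromosome 15, 98648539 to 98964530, plus strand), had 1751, 1777 and 1686 normalized counts in the control replicates and 2004, 2277 and 2201 in KO clones 1 to 3. Each clone lay above every control library, and the clones stood 1.15, 1.31 and 1.27 times the control mean. Its level rose from 1738 ± 46.8 to 2161 ± 141 (mean ± SD, n = 3 per group), or 0.31 ± 0.066 (SE) in log2 fold change (adjusted p = 0.0248, limma), under the fold change of the cut-off. Leaving out 1 control replicate raised the limma adjusted p to 0.114, 0.0894 and 0.123 (without control replicate 1, 2 and 3), with log2 fold changes of 0.32, 0.33 and 0.29. Over all tested genes, leaving out a control replicate lowered the number higher at an adjusted p below 0.05 from 1063 to between 378 and 426.

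*INSR*, the insulin receptor (chromosome 19, 7112255 to 7294414, minus strand), had 714.9, 776.9 and 789.2 normalized counts in control cells and 819.7, 910.6 and 859.9 in clones 1 to 3. The groups did not overlap, but the difference was small, a log2 fold change of 0.18 (95% interval 0.00011 to 0.37), and it did not pass over all genes (limma adjusted p = 0.169). Per kb of transcript, the ratio of *IGF1R* to *INSR* was 1.65 to 1.89 in control cells and 1.89 to 1.98 in the clones, so the groups overlapped at their edges.

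*IGF2R*, which clears IGF2 and carries mannose 6-phosphate-tagged enzymes to lysosomes (chromosome 6, 159969082 to 160113507, plus strand), had 10631, 11358 and 11348 normalized counts in control cells and 10171, 11297 and 13629 in the clones. Clone 1 was the lowest and clone 3 the highest of the 6 libraries, and the groups overlapped. The log2 fold change was 0.06 (95% interval -0.18 to 0.31, limma adjusted p = 0.722), and without clone 3 it was -0.051. Per kb, *IGF2R* stood 5.28 to 5.86 times above *IGF1R* in control cells and 4.32 to 5.39 times in the clones.

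Of the docking proteins, *IRS2* (chromosome 13, 109752695 to 109786583, minus strand) had 827.0, 872.8 and 853.4 normalized counts in control cells and 981.9, 1367 and 1156 in the clones. All clones lay above the control libraries, clone 1 nearest to them. The log2 fold change was 0.44 ± 0.12 (SE; adjusted p = 0.0511, limma), short of the fold change of the cut-off and of the adjusted threshold. Without clone 1, *IRS2* was past the cut-off, with a log2 fold change of 0.56 (limma adjusted p = 0.00896). On recovered reads the adjusted p was 0.0474 with edgeR and 0.0075 with DESeq2.

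*IRS1* (chromosome 2, 226731312 to 226799820, minus strand) had 1002, 1158 and 987.4 normalized counts in control cells and 1238, 924.4 and 1320 in the clones. Clone 2 was the lowest library of all and clone 3 the highest, so the groups overlapped. The log2 fold change was 0.13 (95% interval -0.20 to 0.46, limma adjusted p = 0.574). The median log2 difference of the 40 neighbouring tested genes was 0.13, 0.21 and 0.31 in clones 1 to 3, and with this regional shift removed the value for *IRS1* was -0.082. Their part in the result was not tested further. The ratio of *IRS1* to *IRS2* per kb was 0.97 to 1.11 in control cells and 1.05, 0.56 and 0.95 in clones 1 to 3, so clone 2 stood below all other libraries.

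*IGFBP4*, a small secreted protein that mostly holds IGFs away from their receptors and is the substrate of PAPPA (chromosome 17, 40443450 to 40457725, plus strand), had 3553, 3689 and 3968 normalized counts in the control replicates and 12725, 14776 and 6260 in KO clones 1 to 3. The lowest clone lay above the highest control library. Clones 1 and 2 stood 3.41 and 3.95 times the control mean and clone 3 only 1.68 times. Its level rose from 3736 ± 212 to 11254 ± 4445 (mean ± SD, n = 3 per group), or 1.50 ± 0.29 (SE) in log2 fold change (95% interval 0.83 to 2.17; adjusted p = 0.0169, limma). *IGFBP4* passed the cut-off with each of the 6 libraries left out, with log2 fold changes from 1.26 (without clone 2) to 1.88 (without clone 3). The limma adjusted p was 0.0839, 0.0787 and 0.0698 without control replicate 1, 2 and 3. The 40 neighbouring genes had medians of 0.015, 0.051 and -0.076 on the log2 scale in the 3 clones, and with them removed the log2 fold change of *IGFBP4* was again 1.50.

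Of 11453 genes with a mean of at least 50 normalized counts, those whose log2 profile over the 6 libraries was most like that of *IGFBP4* were *EBF4*, *LTBP3* and *ACOT4*. Their root mean square differences from it were 0.24, 0.24 and 0.25 on the log2 scale. *LTBP3*, which encodes a carrier of latent TGF-beta, had 437.0, 508.8 and 490.3 normalized counts in control cells and 1174, 1534 and 720.5 in the clones, with clone 3 the lowest as for *IGFBP4*.

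*IGFBP6*, which binds IGF2 in preference to IGF1 (chromosome 12, 53097436 to 53102345, plus strand), had 1246, 1327 and 1304 normalized counts in control cells and 2104, 2125 and 2863 in the clones. Every clone lay well above the control range, and here clone 3 was the highest. Its level rose from 1292 ± 41.8 to 2364 ± 432 (mean ± SD, n = 3 per group), or 0.86 ± 0.12 (SE) in log2 fold change (adjusted p = 0.00554, limma). *IGFBP6* was the only one of the 10 genes to stay past the cut-off and at an adjusted p below 0.05 with each library left out, at log2 fold changes from 0.71 to 0.93. Removing the shift of its neighbouring genes left 0.80.

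*IGFBP2*, a binding protein often raised in tumors (chromosome 2, 216632828 to 216664436, plus strand), had 795.0, 851.2 and 800.7 normalized counts in control cells and 927.5, 1581 and 1376 in the clones. Clone 1 lay just above the control range and clones 2 and 3 far above it. The log2 fold change was 0.63 ± 0.18 (SE; adjusted p = 0.0632, limma), so *IGFBP2* passed the cut-off of the study but not the adjusted threshold in that fit. On recovered reads it passed the cut-off with both count tools, with an adjusted p of 0.0526 with edgeR and 0.0038 with DESeq2. The call was lost without control replicate 1, 2 or 3 (log2 fold changes of 0.61, 0.66 and 0.62), without clone 2 (0.47) and without clone 3 (0.57), and it was kept without clone 1 (0.85). With the shift of its neighbouring genes removed (medians of 0.14, 0.12 and 0.17 in the clones), the log2 fold change was 0.49. Its direction did not change under any alternative tried.

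*IGFBP3*, the main carrier of IGFs in blood, which also has growth-restraining effects of its own (chromosome 7, 45912245 to 45921874, minus strand), had 1383, 1285 and 1257 normalized counts in control cells and 952.2, 1081 and 867.1 in the clones. Every clone lay below the lowest control library, clone 3 farthest. Its level fell from 1308 ± 66.3 to 966.7 ± 108 (mean ± SD, n = 3 per group), or -0.44 ± 0.094 (SE) in log2 fold change (adjusted p = 0.0250, limma). This is less than the fold change of the cut-off, which was passed only without clone 2, at -0.52. The limma adjusted p was 0.128, 0.0959 and 0.0882 without control replicate 1, 2 and 3. Its neighbour *IGFBP1*, which encodes an insulin-regulated binding protein and is not one of the 10 genes, had 270.0, 330.7 and 315.0 normalized counts in control cells and 325.3, 199.6 and 215.0 in the clones, with overlapping groups, a log2 fold change of -0.34 and a limma adjusted p of 0.296. Without clone 1, *IGFBP1* passed the cut-off as lower, at -0.55 (limma adjusted p = 0.0282).

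*IGFBP7*, a secreted protein with low affinity for IGFs (chromosome 4, 57030773 to 57110385, minus strand), was near the lower limit of measurement, with 22, 28 and 32 recovered reads in the control libraries and 30, 11 and 26 in the clones. Clone 2 was lowest and clone 1 within the control range. The log2 fold change of -0.61 had a 95% interval from -1.60 to 0.38 (limma adjusted p = 0.374), so neither a lower nor a higher level was shown. Without clone 2 it was -0.15 and without clone 1 -0.92, so its size rested on single clones. In the annotation *IGFBP7* overlaps *POLR2B* on the other strand, *IGF2R* overlaps *AIRN*, and *IGF1R* and *IRS2* overlap antisense RNAs. The strand setting of the counting is not given in the sources used here, so reads shared with these partners cannot be told apart.

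Added together per kb of transcript, *IGFBP1* to *IGFBP7* reached 4214, 4405 and 4457 normalized counts per kb in the control libraries and 9249, 10616 and 7326 in clones 1 to 3. The total was higher in all clones, and it also was without *IGFBP4*, at 2603 to 2733 against 3478 to 4487 normalized counts per kb. *IGFBP4* made up 38.0% to 40.4% of the total in control cells, 62.4% and 63.1% in clones 1 and 2, but 38.8% in clone 3, within the control range. *IGFBP6* made up 30.9% to 31.8% in control cells, 24.0% and 21.1% in clones 1 and 2 and 41.3% in clone 3. Thus clones 1 and 2 held a larger share of *IGFBP4*, and clone 3 a larger share of *IGFBP6*, than any control library. The share of *IGFBP3* was 10.8% to 12.6% in control cells and 3.90% to 4.53% in the clones, without overlap. A share also depends on the total, which was higher in all clones. The level of *IGFBP3* itself stood at 0.739 times the control mean, and that of *IGFBP6* was higher in every clone than in control cells. *IGFBP5* had at most 2 reads in any library.

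**Figure D3:**
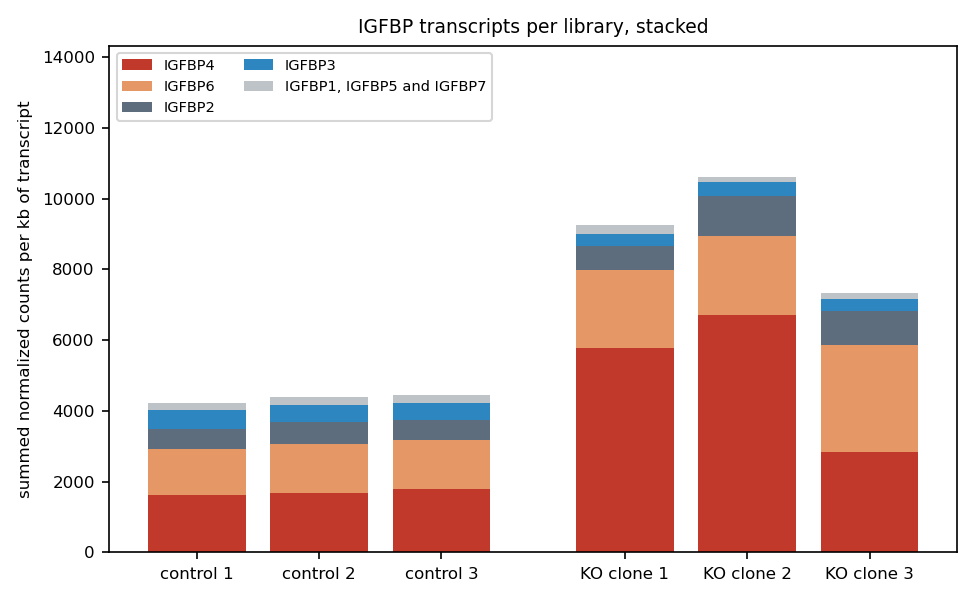
Summed normalized counts per kb of IGFBP1 to IGFBP7 in each of the 6 libraries, as bars from 0 stacked by gene. The totals are 4214 to 4457 in control libraries and 7326 to 10616 in KO clones, and the IGFBP4 part is 38.8% in clone 3 against 62.4% and 63.1% in clones 1 and 2.

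By level per kb, the order in control cells was *IGFBP4* (1695 ± 96.0 normalized counts per kb, SD, n = 3), *IGFBP6* (1364 ± 44.1), *IGF2R* (790.3 ± 29.7), *IGFBP2* (576.8 ± 21.9), *IGFBP3* (500.6 ± 25.4), *IGF1R* (142.1 ± 3.8), *IRS1* (107.4 ± 9.7), *IRS2* (104.3 ± 2.8), *INSR* (80.3 ± 4.2) and *IGFBP7* (20.8 ± 4.3). The ranges of neighbours in this order did not overlap, except those of *IRS1* and *IRS2*. In the KO clones *IGFBP2* (915.8 ± 236 normalized counts per kb) stood next to *IGF2R* (832.0 ± 125) with overlapping ranges, and the ranges of *IGFBP4* and *IGFBP6* overlapped because of clone 3. Lower in the order, *IRS2* stood above *IRS1* in the clones. There the ranges of *IGF1R* and *IRS2*, of *IRS2* and *IRS1*, and of *IRS1* and *INSR* overlapped as well.

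The clones varied more among themselves than the control replicates did. The SD of the log2 values was larger in the clones for 9 of the 10 genes, the exception being *INSR*, and for 82.8% of all tested genes. Its median over the 10 genes was 0.064 in control cells and 0.25 in the clones, against 0.059 and 0.15 over all tested genes. Among the clones, clone 2 was the highest for 6 of the 10 genes, clone 3 for 3 and clone 1 for 1, against 32.9%, 32.8% and 34.4% of all tested genes. Clone 1 was the lowest for 6 of the 10, against 33.7% of all tested genes. No single clone was the most changed throughout: *IGFBP4* was highest in clone 2, *IGFBP6* in clone 3, and *IGFBP3* was lowest in clone 3.

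Of 119 other genes of the IGF pathway, in 6 lists, 103 were tested. By the cut-off 7 of the 103 were higher, against 5.77% of all tested genes, and 2 were lower, against 2.08%. At an adjusted p below 0.05, 11 were higher, against 8.32% of all tested genes, and 5 were lower, against 4.7%. The median log2 fold change of the 103 genes was 0.027, near that of all tested genes. No test compared the counts in the lists with those over all tested genes. The list of IGF ligands and further IGFBP relatives held 9 tested genes, 2 of them called higher and 1 lower. The ligand transcripts were listed at or near 0: *IGF1* had 1 read in all libraries together, *IGF2* had at most 1 read per library, and *INS* was listed at 0. *PIK3R2*, of the adaptors and kinases downstream, and the duct gene *KRT19* were also listed at 0 in every library. Whether a listed 0 means that a transcript was absent, or that its reads were not assigned to the gene, was not tested. *INSRR*, *IGFALS* and *IRS4* also had at most 4 reads in any library.

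*IGFBPL1*, an IGFBP-like secreted protein, had 184.2, 219.2 and 202.7 normalized counts in control cells and 461.8, 506.3 and 455.1 in the clones. The clones agreed closely and all stood above the control libraries, with a log2 fold change of 1.23 ± 0.11 (SE; adjusted p = 0.000980, limma). *HTRA1*, a secreted serine protease with an IGFBP-like domain, had 440.4, 456.9 and 482.2 normalized counts in control cells and 1404, 852.7 and 1364 in the clones. Here clone 2 was the lowest clone, still above every control library, and the log2 fold change was 1.36 ± 0.19 (SE; adjusted p = 0.00499, limma). *CCN2*, a matricellular protein of the same domain family, fell from 28054 ± 1131 normalized counts to 16928 ± 2117 (mean ± SD, n = 3 per group), a log2 fold change of -0.74 (limma adjusted p = 0.00416). Its relatives *CRIM1* (log2 fold change -0.38, limma adjusted p = 0.0281) and *CCN1* (-0.31, limma adjusted p = 0.0565) had smaller values, and *ESM1*, *CCN3* and *KAZALD1* had overlapping groups and did not pass.

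Of the 6 tested genes in the list of IGFBP proteases and their inhibitors, 1 was called. That list does not hold *HTRA1*, also a secreted protease, which is given above among the IGFBP relatives. *PLAU*, the urokinase-type plasminogen activator, rose from 30302 ± 1476 normalized counts to 46021 ± 2413 (mean ± SD, n = 3 per group), or 0.60 ± 0.066 (SE) in log2 fold change (adjusted p = 0.00236, limma). *PAPPA*, the protease that cleaves IGFBP4, had 11.4, 9.8 and 25.2 normalized counts in control cells and 4.0, 2.6 and 14.4 in the clones. The groups overlapped at these low levels (limma adjusted p = 0.240). *PAPPA2*, a related IGFBP protease, had 14, 16 and 10 reads in the control libraries and 1, 1 and 0 in the clones, and lay below the filter on low counts. In a fit without the filter its limma adjusted p was 0.00263; it was singled out after its values were seen.

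Among 17 genes of receptor processing and turnover, 0 passed the cut-off, although with limma *PCSK6*, a proprotein convertase (log2 fold change 0.40, adjusted p = 0.0113), and *LRP1*, an endocytic receptor (0.33, adjusted p = 0.0438), were higher, and *NEDD4*, a ubiquitin ligase that acts on IGF1R (-0.26, adjusted p = 0.0195), and *ARRB2*, a beta-arrestin (-0.30, adjusted p = 0.0476; named beyond the naming rule), were lower. Among 37 adaptors and kinases downstream, only *GAB2*, a docking protein, was called, from 589.3 ± 18.2 to 930.1 ± 188 normalized counts (mean ± SD, n = 3 per group; log2 fold change 0.64, limma adjusted p = 0.0250). Without clone 3, which was the highest at 1147 normalized counts, its log2 fold change was 0.48, under the cut-off, and without control replicate 1, 2 or 3 its limma adjusted p was 0.114, 0.0900 and 0.106. *SOS2* and *GRB2* had the next smallest p in that list, with log2 fold changes of 0.22 and -0.16 and limma adjusted p-values of 0.0630 and 0.0638.

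Of 18 negative regulators, 2 were called higher and 1 lower. *INPP4B*, a phosphatase of PI3K products, had 533.0, 568.5 and 544.1 normalized counts in control cells and 218.5, 390.5 and 237.5 in the clones. All clones were lower, clone 2 least, and the log2 fold change was -1.01 ± 0.21 (SE; adjusted p = 0.0229, limma), past the cut-off with each library left out. *PIK3IP1*, which restrains PI3K, had 24.0, 26.4 and 24.1 normalized counts in control cells and 38.6, 74.3 and 63.0 in the clones (log2 fold change 1.16, limma adjusted p = 0.0357). *TRIB3*, a pseudokinase that binds AKT, had 1790, 1876 and 1698 normalized counts in control cells and 2124, 3298 and 2921 in the clones (log2 fold change 0.61, limma adjusted p = 0.0397). With libraries left out in turn, both kept the call only without clone 1. Without control replicates 1 to 3 and clones 2 and 3 in turn, the log2 fold changes were 1.13, 1.20, 1.14, 0.96 and 1.08 for *PIK3IP1* and 0.62, 0.65, 0.58, 0.48 and 0.57 for *TRIB3*. The call of *TRIB3* was also lost with the shift of its neighbouring genes removed (medians of 0.33, 0.28 and -0.034 in the clones), at a log2 fold change of 0.43 (limma adjusted p = 0.157). *GRB10*, an adaptor that dampens IGF1R and INSR, was higher at a log2 fold change of 0.30 (limma adjusted p = 0.0309).

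*FOXO1*, a transcription factor that AKT keeps out of the nucleus, had 364.9, 361.0 and 376.9 normalized counts in control cells and 529.0, 590.1 and 641.3 in the clones. The clones all stood above the control libraries, with a log2 fold change of 0.67 ± 0.097 (SE; adjusted p = 0.00617, limma), and the call was kept with each library left out. *FOXO1* was the only called gene among 16 FOXO factors and transcripts known to be raised by them. *BCL6* rose by less (log2 fold change 0.47, limma adjusted p = 0.0216), *SESN3* had 0.40 (limma adjusted p = 0.0504), and 12 of the 16 had a log2 fold change above 0, as did 6227 of all 12773 tested genes. For several of these pathway genes the adjusted p from limma rose past 0.05 when any control replicate was left out, to at most 0.120 for *CRIM1*, 0.112 for *NEDD4*, 0.152 for *GRB10* and 0.113 for *BCL6*, and to at least 0.0959 for *INPP4B*. It did so without control replicate 1 or 3 for *PCSK6* (at most 0.0718), and without any control replicate or either of 2 clones for *LRP1* (at most 0.176; clones 1 and 3) and *ARRB2* (at most 0.203; clones 2 and 3). *PIK3IP1* (at most 0.137) and *TRIB3* (at most 0.150) did so without each of the libraries that ended their call.

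**Figure D4:**
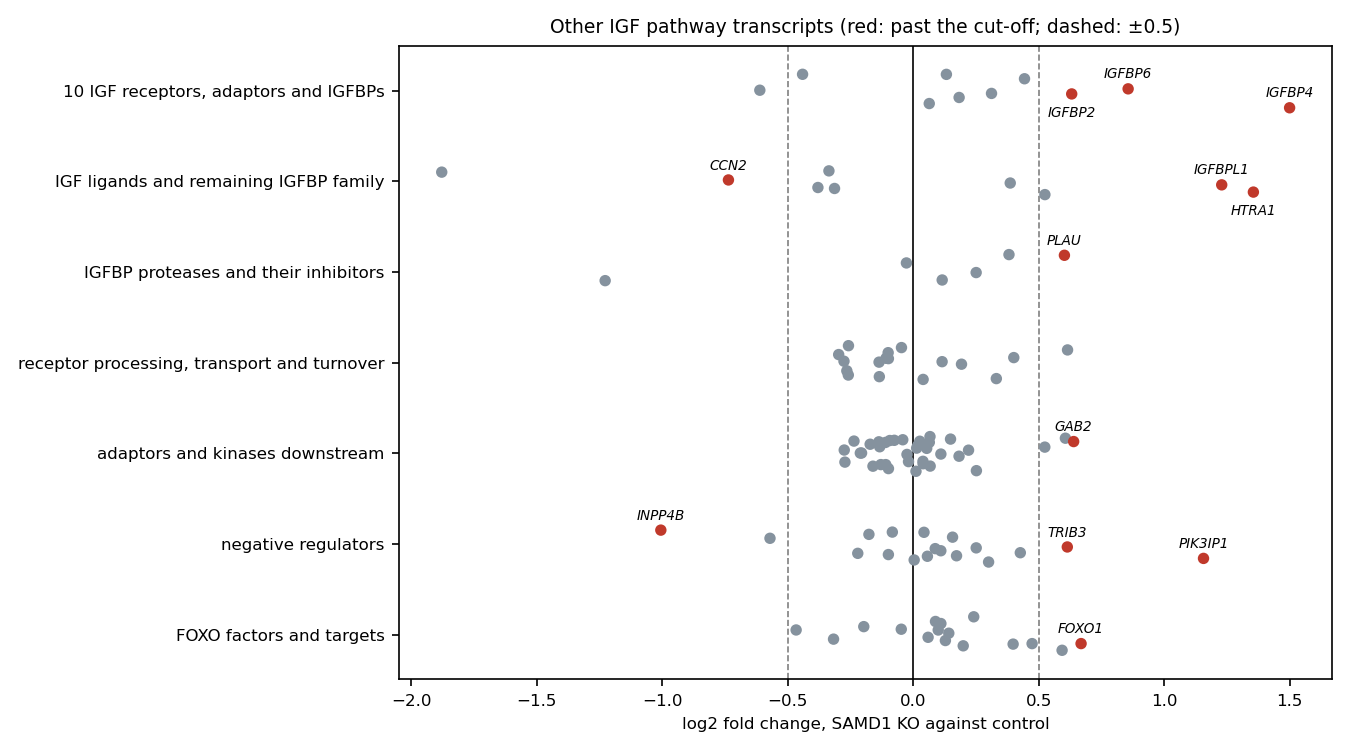
Log2 fold change, SAMD1 KO against control, of the 10 genes (top line) and of the 103 tested genes in the 6 other IGF pathway lists, 1 point a gene. Red points passed the cut-off and are named, and dashed lines mark a log2 fold change of 0.5 in either direction. The grey points of the adaptors, kinases and receptor turnover genes lie mostly between the dashed lines.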

How the data were processed

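The authors sequenced stranded mRNA libraries, mapped them with RNA-STAR to GENCODE 43 transcripts (hg38), counted them with featureCounts per the processing notes, and divided the counts by DESeq2 size factors. The deposited signal is this normalized count per gene symbol. In each library 100% of the values (tolerance 0.02 reads) were whole multiples of 1 step, so reads were recovered (size factors 0.873 to 1.16). Every sample column was used (0 left out). The deposited table of the authors' own comparison was not used: it holds log2 fold changes, p-values and scores (mean, standard error and Wald statistic).

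The comparison used limma 3.58.1 with R 4.3.3 (lmFit, eBayes with a trend). It took log2(normalized count + 1) of 12773 genes, those whose mean over the libraries was 10 or more. Fold changes are on that scale, and all tests were two-sided. P-values were adjusted by Benjamini-Hochberg over all tested genes. Intervals and p-values cover only the spread between these libraries, which for the control replicates may be technical. Tried as alternatives were pseudocounts of 0.1 and 10, no filter, a mean of at least 50, 75th percentile scaling, edgeR 4.0.16 and DESeq2 1.42.0 on recovered reads, the replicate block, adjusted p-values for the cut-off, each library left out, and removal of the median shift of 20 tested genes on either side. Positions and transcript lengths are from GENCODE 44, with 188 older symbols matched through synonyms, so that 99.4% of tested genes had a position. The fits were checked on simulated counts with the same spread in both groups, so this check does not cover the larger spread of the clones.

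The members and lists were chosen with earlier results of these data known. Named are all 10 members, the genes of the first list, every called list gene, and otherwise up to 3 genes a list with the smallest p. Figures used matplotlib 3.10.9.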

Additional observations from a re-analysis of the deposited data

How the results depend on the processing

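Of 159 values of the 10 genes under alternatives, 145 kept their direction and their side of the cut-off, 9 (all of *IGFBP2*) dropped below it, 3 passed it (*IRS2* without clone 1 and with the regional shift removed, *IGFBP3* without clone 2) and 2 changed direction. The latter were *IGF2R*, at -0.051 to 0.16 with each library left out (lowest without clone 3), and *IRS1*, at -0.082 with the regional shift removed; the cause was not tested, and neither gene was called under any alternative. *IGFBP2* also lost its call with a mean of at least 50 (limma adjusted p = 0.0639), with 75th percentile scaling (limma adjusted p = 0.0675) and under an adjusted p in the cut-off. *IGFBP2* kept the call with edgeR, DESeq2, the replicate block, both other pseudocounts and no filter. Leaving out each library in turn gave 0 to 1 of the 10 genes lower (*IGFBP3*) and 2 to 4 higher, and 5 to 10 of the other pathway genes higher and 2 to 3 lower. In the same fits, 568 to 862 of all 12773 tested genes were higher and 180 to 370 lower. The largest count of higher genes came without clone 1, both for the 10 genes and over all tested genes.

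Deviations of same-numbered libraries from their group means had correlations of 0.039, 0.13 and 0.032 over genes, so the numbers were not taken as pairs, although 5 of 6 libraries were most like their own number. With the replicate block the counts were 3 higher and 0 lower of the 10 genes and 7 higher and 2 lower of the pathway genes. Of all 12773 tested genes, 725 were then higher and 259 lower. *IRS2* had a limma adjusted p of 0.0495 with the block. *IGFBP7* (11 to 32 reads per library) and *PAPPA2* (0 to 16) were measured on few reads, and an SD over 3 libraries is itself imprecise for every gene.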
